A study of Homo sapiens with 15 samples.

Results

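The comparison asked whether the same concentration of cisplatin changed the distribution of platinum adduct reads along the genome differently in a resistant and a sensitive ovarian cancer line. PEO1 and PEO4 are established lines of high-grade serous ovarian cancer from the same patient, PEO1 labelled as clinically sensitive to platinum and PEO4 as resistant, so that each condition is represented by a single line. Each line was sampled untreated and after 16 µM cisplatin, which gives 4 groups of 3 libraries, or 12 of the 15 libraries of the series. The other 3 libraries, from PEO4 at 32 µM, entered the fits to share the estimate of spread. They also entered the count filter, the scaling between libraries and the mean of PEO4 from which the trends with GC content were taken. The study matched the lines for platinum load by giving PEO4 the higher dose of 32 µM. At an equal dose, the study reported fewer platinum adducts in PEO4 than in PEO1 by mass spectrometry. At 16 µM it also reported a weaker enrichment of purine dinucleotides at the read starts of PEO4. From the counts compared here, that smaller amount of platinum and a different location of it cannot be told apart. The response of a line is the log2 change of its treated libraries over its untreated libraries, and subtracting that of PEO1 from that of PEO4 gives the response difference. It was measured over all autosomal protein-coding gene bodies of at least 50 kb (6520 in the annotation, 6483 of them tested after a minimum mean count of 100), over 1 Mb bins of chromosomes 1 to 22 (2694, of which 2688 were tested after a minimum mean count of 500) and over all 39 chromosome arms.

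Cisplatin binds the N7 position of purines and forms mainly intrastrand crosslinks between neighbouring guanines, so GG dinucleotides, and with them GC-rich DNA, offer the most sites. The crosslinks block polymerases and are removed by nucleotide excision repair, of which a transcription-coupled branch acts on the transcribed strand of active genes, while crosslinks between strands also draw on the Fanconi and homologous recombination pathways. In Pt-exo-seq, exonucleases digest sheared DNA until an adduct stops them, the platinum is removed with cyanide and the protected strand is sequenced. Fragments that escape digestion without an adduct are sequenced as well, and the untreated libraries measure them together with the copy number of each line.

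To show the sequence that these regions offer to cisplatin, 120 bases are printed from inside the gene body with the smallest p-value in each direction, each chosen nearest the middle of the gene with a GC content within 1 percentage point of that of the whole gene. GG and CC dinucleotides, the latter being GG on the other strand, are in capitals. Both stretches are intronic, are given on the plus strand of GRCh37, and come from genes on the minus strand. In TENM4 (chr11:78757818-78757937) 15 dinucleotides of the stretch were GG or CC, and over the whole gene body they made up 12.1% of dinucleotides. In RPS10-NUDT3 (chr6:34323370-34323489) there were 22, many of them in 3 guanine runs near the end, each separated by 1 thymine, and 11.6% over the whole gene body.
TENM4: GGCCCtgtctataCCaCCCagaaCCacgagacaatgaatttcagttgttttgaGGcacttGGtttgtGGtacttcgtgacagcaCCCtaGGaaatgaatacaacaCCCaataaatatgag
RPS10-NUDT3: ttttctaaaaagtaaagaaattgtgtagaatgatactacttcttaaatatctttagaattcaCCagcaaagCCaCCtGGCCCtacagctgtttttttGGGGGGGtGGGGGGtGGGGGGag

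The 12 libraries held between 31.0 and 56.6 M counts, and between 13.7% and 29.1% of the autosomal 1 kb windows had no count in a library. A gene body of the tested set held a median of 1439 counts per library and a 1 Mb bin 13348, so values are given over these regions and not over single windows. Libraries differed in how their counts followed GC content, including libraries of the same group. Values are therefore given as scaled counts and at given GC. Scaled counts correct for library size with TMM factors and not for GC. At given GC, the GC trend of each library was also divided out. That trend was fitted to the treated libraries too, so a response to cisplatin that follows GC is divided out with it. The labels do not say that the 3 libraries of a group came from separate cultures, so the p-values measure the spread between these libraries, which may be technical. At given GC they measure only the spread left after the GC trends were divided out. The median SE of a response difference over 1 Mb bins was 0.086 in scaled counts and 0.039 at given GC.

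The response followed GC content in opposite directions in the replicate 1 libraries of the lines. Over 2688 bins, the log2 ratio to the untreated mean of the line changed per 10 percentage points of GC by 0.41, -0.035 and -0.036 in the 3 libraries of PEO1 at 16 µM and by -0.47, 0.014 and -0.047 in those of PEO4 at 16 µM. The untreated libraries spread from -0.18 to 0.11 in PEO1 and from -0.11 to 0.076 in PEO4. In both treated groups replicates 2 and 3 lay inside the range of the untreated libraries of their line and replicate 1 lay outside it. The mean slope was 0.11 ± 0.25 (SD, n = 3) in PEO1 and -0.17 ± 0.26 in PEO4, a difference of -0.28 with an SE of 0.24, which was not larger than the spread between libraries (exact two-sided permutation test, p = 0.4, where the smallest possible p is 0.1). The difference was -0.13 without replicate 1 of treated PEO1 and -0.13 without replicate 1 of treated PEO4. It was 0.019 without both, so its direction rested on these libraries.

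In the highest GC decile of bins (median GC 49.7%), the log2 ratios of PEO1 at 16 µM were 0.41, 0.0093 and 0.013 and those of PEO4 at 16 µM were -0.50, 0.00024 and -0.043. In the lowest decile (median GC 35.1%) the 3 PEO1 libraries stood at -0.18, 0.055 and 0.039 and the 3 PEO4 libraries at 0.19, -0.025 and 0.020. The mean response difference ran from 0.091 in the lowest decile to -0.32 in the highest, and in each decile replicate 1 of at least 1 line lay farthest from 0.

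**Figure D1:**
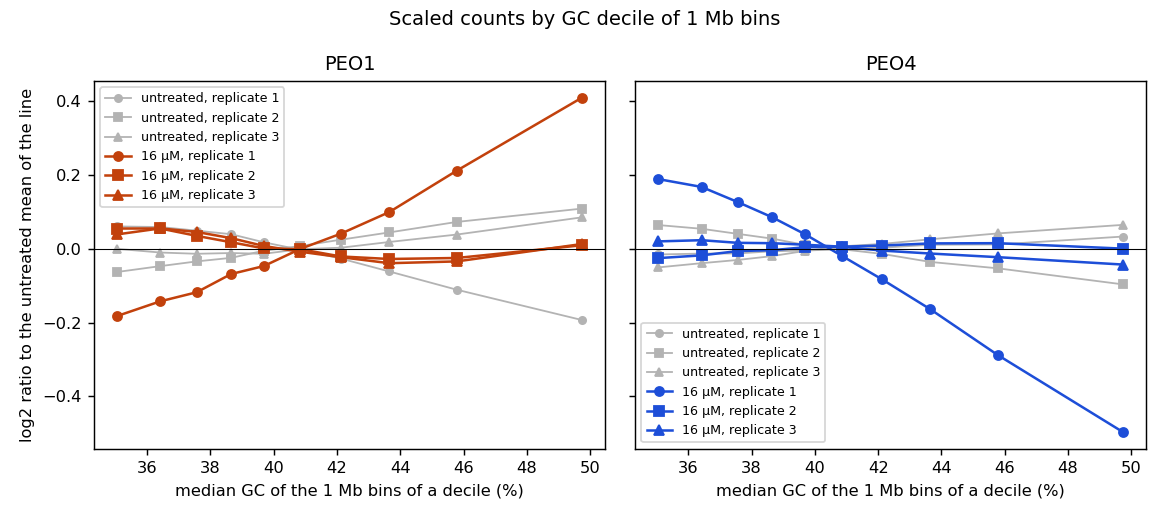
Log2 ratio of scaled counts to the untreated mean of the line (y axis) against the median GC of each decile of 1 Mb bins in percent (x axis), with 1 line per library, untreated libraries in grey and libraries at 16 µM in colour. Replicate 1 of treated PEO1 climbs to 0.41 and replicate 1 of treated PEO4 falls to -0.50 in the highest decile, while replicates 2 and 3 stay between -0.043 and 0.055 throughout.

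Chromosome arms showed the same ordering by GC in scaled counts. The arm with the lowest response difference was 19p (GC 49.6%), where PEO1 had a response of 0.15 and PEO4 of -0.13, a difference of -0.28 with an SE of 0.20. It was followed by 22q at -0.21 and 19q at -0.18, also GC-rich arms, and the highest was the AT-rich arm 4q (GC 37.5%) at 0.090. Across the 39 arms the difference and GC had a Pearson correlation of -0.97, a description of points that share the same 12 libraries. No arm passed the adjusted limit (0, 0%; edgeR quasi-likelihood test, smallest adjusted p = 0.55). None had an unadjusted p under 0.05 with edgeR, 1 had with DESeq2, and none passed the adjusted limit with DESeq2 or limma.

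At given GC the response difference of all arms lay between -0.022 and 0.033, with an SD of 0.012 over arms against 0.083 in scaled counts. The smaller SD is set in part by the method, since the GC trend of each treated library was divided out. The 3 highest were 20q, 16p and 11p. On 20q the scaled counts at given GC were 468040, 465870 and 462210 in untreated PEO1, 455490, 460250 and 459000 in treated PEO1, 614170, 615450 and 613980 in untreated PEO4, and 624200, 618360 and 614520 in treated PEO4. All 3 treated PEO1 libraries were below the untreated ones, and in PEO4 replicates 1 and 2 were above the untreated libraries while replicate 3 lay among them. The response difference of 20q was 0.033 (SE 0.0096, limma adjusted p = 0.050036, just above the limit of 0.05), and those of 16p and 11p were 0.027 and 0.016. In scaled counts 20q and 16p were at -0.11 and -0.12, so both changed sign, and 11p was at 0.027.

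The 3 lowest arms were 19p, 15q and 17q, at -0.022, -0.020 and -0.019. On 15q the treated PEO1 libraries held 1300800, 1313900 and 1311600 scaled counts against 1295000, 1294400 and 1296700 untreated, and the treated PEO4 libraries 1049700, 1051300 and 1053100 against 1056000, 1056700 and 1053800. The treated libraries were above every untreated one in PEO1 and below every untreated one in PEO4. The response difference of 15q was -0.020 (SE 0.0049, with the same adjusted p as 20q by limma). The value of 19p turned to 0.0063 without replicate 1 of treated PEO4. At given GC 0 of 39 arms (0%) passed the adjusted limit with limma, 7 (17.9%) had an unadjusted p under 0.05, and 1 passed the adjusted limit with DESeq2.

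**Figure D2:**
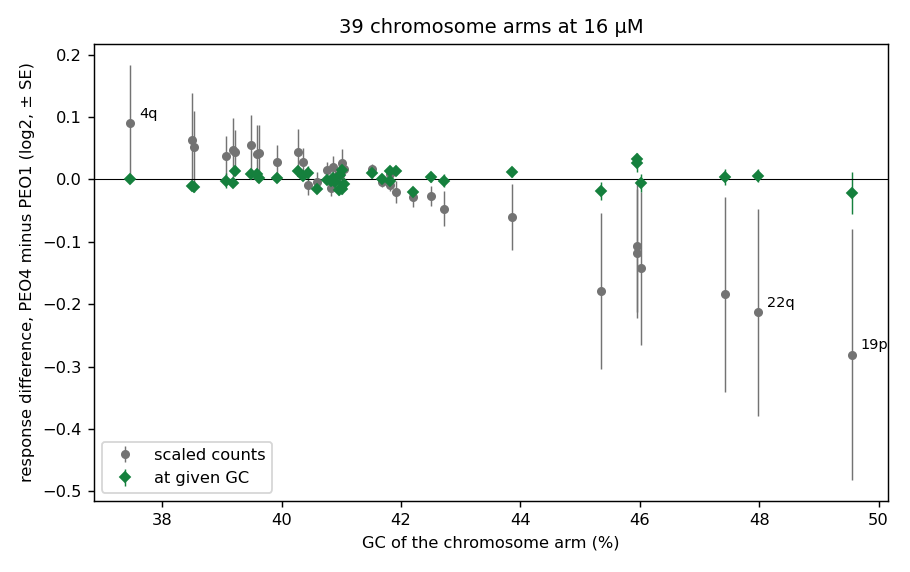
Response difference, PEO4 minus PEO1 at 16 µM, in log2 with its SE (y axis) against the GC of each of the 39 chromosome arms in percent (x axis), in scaled counts (grey circles) and at given GC (green diamonds). In scaled counts the difference runs from 0.090 on 4q to -0.28 on 19p, and at given GC all arms lie between -0.022 and 0.033.

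No 1 Mb bin passed the adjusted limit in scaled counts (0 of 2688, 0%; edgeR, smallest adjusted p = 0.86; DESeq2 and limma also 0), and 37 (1.38%) had an unadjusted p under 0.05, 18 with a higher (0.67%) and 19 with a lower (0.707%) response in PEO4. The split depended on the scaling, since 45 of 58 were higher with library size alone and 12 of 33 with the size factors of DESeq2. The response of PEO1 and that of PEO4 had a Pearson correlation of -0.71 over bins in scaled counts and of -0.11 at given GC, and the SD of the response difference went from 0.14 to 0.054. Both are descriptions over bins that share libraries, GC content and copy number. The weaker correlation and smaller SD at given GC are set in part by dividing out the GC trends.

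At given GC, 1 bin (0.0372% of those tested) passed the adjusted limit. It was the first bin of chromosome 1 (chr1:1-1000000), which contains no protein-coding gene of at least 50 kb, has 840000 known bases and held fewer reads than most bins. Its scaled counts at given GC were 2334, 2269 and 2518 in untreated PEO1 and 3107, 2426 and 2683 in treated PEO1, and 3592, 3719 and 3703 in untreated PEO4 and 2808, 3348 and 3356 in treated PEO4. The treated PEO4 libraries were all below the untreated ones, whereas in PEO1 replicate 2 lay between the untreated libraries. The response was 0.21 in PEO1 and -0.21 in PEO4, a difference of -0.41 (SE 0.14, edgeR adjusted p = 0.020). Replicate 1 was the most extreme library in both lines. The difference was -0.31 (adjusted p = 0.13) without replicate 1 of treated PEO1, -0.34 (adjusted p = 0.10) without replicate 1 of treated PEO4 and -0.24 (adjusted p = 0.41) without both, and the adjusted p also exceeded 0.05 when 1 of 4 untreated libraries was left out (replicate 1 or 2 of PEO1, replicate 2 or 3 of PEO4). The part of its low count and of the replicate 1 libraries in this difference was not tested.

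The bins next in order did not pass the adjusted limit. Among those with a higher response in PEO4, 3 lay at chr20:59000001-60000000 with the cadherin gene CDH4 (0.16, adjusted p = 0.052), at chr11:115000001-116000000 with the cell adhesion gene CADM1 (0.15, adjusted p = 0.084) and at chr4:4000001-5000000 with NSG1 and STX18 (0.13, adjusted p = 0.084). In scaled counts these 3 bins were at 0.043, 0.12 and -0.015 (edgeR, unadjusted p = 0.66, 0.085 and 0.90), so the last changed sign. In the CDH4 bin the treated PEO1 libraries held 12564, 12566 and 12566 scaled counts at given GC against 13372, 13470 and 13272 untreated, and the treated PEO4 libraries 19718, 18058 and 18452 against 18157, 17821 and 17636. Treated PEO1 was below all of its untreated libraries, while treated PEO4 replicate 2 lay within the range of the untreated ones. The untreated counts of this bin were higher in PEO4 than in PEO1, as the copy number of the lines can set.

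The lower bins after the first of chromosome 1 were chr6:34000001-35000000 (-0.16, SE 0.027, adjusted p = 0.066), which holds 7 protein-coding genes of at least 50 kb, among them NUDT3, PACSIN1 and ANKS1A, chr15:64000001-65000000 (-0.14, adjusted p = 0.086) with 7 such genes, among them HERC1 and DAPK2, and chr2:32000001-33000000 (-0.15, adjusted p = 0.087) with 6, among them SPAST and BIRC6. The response of PEO1 in these 3 bins was 0.13, 0.10 and 0.096, and that of PEO4 was -0.037, -0.036 and -0.057. Of all bins at given GC, 270 (10%) had an unadjusted p under 0.05, 137 higher (5.1%) and 133 lower (4.95%). When the GC trend was centred so that TMM alone set the level, an alternative chosen after seeing the data, 34 of 327 were higher, so the balance between directions depends on how the level is set.

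No gene body passed the adjusted limit at 16 µM on either scale. In scaled counts 0 of 6483 (0%) passed (edgeR, smallest adjusted p = 0.87; DESeq2 and limma also 0), and 294 (4.53%) had an unadjusted p under 0.05, 104 of them higher (1.6%) and 190 lower (2.93%). At given GC 0 of 6483 (0%) passed with edgeR (smallest adjusted p = 0.21), 3 with DESeq2 and 5 with limma on ratios to the untreated mean, and 423 (6.52%) had an unadjusted p under 0.05, 234 higher (3.61%) and 189 lower (2.92%). With the centred trend the split was 148 higher and 296 lower. The 3 treated libraries of PEO4 did not overlap the 3 of PEO1 in 23.1% of all gene bodies at given GC. The median SE of a response difference was 0.10 there, and 5 gene bodies differed by more than 1.5-fold.

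Of the 10 gene bodies with the smallest p-values and a higher response in PEO4, the first was TENM4, which encodes a teneurin, a transmembrane protein of neuronal connections, and spans 788.2 kb at chr11:78363874-79152074. Its scaled counts at given GC were 17302, 16784 and 16526 in untreated PEO1 and 15753, 15364 and 15592 in treated PEO1, and 15386, 15472 and 15625 in untreated PEO4 and 16964, 16289 and 15383 in treated PEO4. All treated PEO1 libraries were below all untreated ones, and in PEO4 replicates 1 and 2 were above the untreated libraries while replicate 3 was just below them. The response was -0.12 in PEO1 and 0.065 in PEO4, a difference of 0.18 (SE 0.047, adjusted p = 0.21). In scaled counts the difference was 0.14 (SE 0.069, edgeR unadjusted p = 0.13). On that scale replicate 1 of treated PEO1, at 16750, lay among the untreated PEO1 libraries, at 16688, 17343 and 16628. This is the gene body whose intronic sequence is printed first above, and its GC of 44.4% is above the median of 41.0%.

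DMBT1, a secreted scavenger-receptor glycoprotein of mucosal surfaces (83.1 kb, chr10:124320181-124403252), had the largest difference of all tested gene bodies at given GC. It held 483, 521 and 445 scaled counts in untreated PEO1, 363, 424 and 358 in treated PEO1, 373, 318 and 342 in untreated PEO4 and 490, 434 and 425 in treated PEO4. The treated libraries were below every untreated one in PEO1 and above every untreated one in PEO4. The difference was 0.72 (SE 0.14, adjusted p = 0.34), on counts that were low for a gene body.

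The other 8 were ENSG00000260234, DNAH8 (an axonemal dynein heavy chain), NELL1 (a secreted protein of bone formation), EPHX2 (soluble epoxide hydrolase), NTRK3 (the receptor of neurotrophin-3), BEND6, ARNT2 (a bHLH-PAS transcription factor) and PRKCE (protein kinase C epsilon), each with an adjusted p of 0.37. Their response differences ran from 0.16 in NELL1 to 0.50 in EPHX2. In NELL1, which spans 906.1 kb, treated PEO4 held 11596, 11430 and 11175 scaled counts against 10398, 10593 and 10505 untreated, whereas the treated PEO1 libraries, at 10692, 11602 and 11356, overlapped the untreated ones at 11612, 11302 and 11708. In DNAH8 the pattern was the other way round, with 2029, 1997 and 2030 in treated against 2379, 2401 and 2222 in untreated PEO1, and 4102, 4358 and 4406 in treated against 4087, 4293 and 4110 in untreated PEO4. The treated libraries of DNAH8 were thus separate from the untreated ones in PEO1 only and those of NELL1 in PEO4 only. Without the GC trend divided out, the differences of these 8 kept their sign. Their edgeR unadjusted p-values in scaled counts then ran from 0.0033 in BEND6 to 0.16 in NTRK3.

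Of the 10 gene bodies with a lower response in PEO4, the first was RPS10-NUDT3, a read-through gene that overlaps NUDT3, a diphosphoinositol polyphosphate phosphohydrolase, so that reads in the shared stretch count for both. It spans 141.2 kb at chr6:34252664-34393848. It held 851, 907 and 871 scaled counts at given GC in untreated PEO1 and 1108, 1097 and 1054 in treated PEO1, and 1989, 2146 and 2148 in untreated PEO4 and 1988, 1978 and 1868 in treated PEO4. In PEO1 all treated libraries were above all untreated ones, and in PEO4 all were below. The response was 0.31 in PEO1 and -0.11 in PEO4, a difference of -0.42 (SE 0.058, adjusted p = 0.33).

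MELK, a kinase of proliferating cells, had a difference of -0.43 (SE 0.13, adjusted p = 0.34). Its treated PEO1 libraries held 1528, 1636 and 1460 scaled counts against 1297, 1211 and 1385 untreated, and its treated PEO4 libraries 1127, 1403 and 1407 against 1540, 1442 and 1487. Replicate 1 of treated PEO4 stood below the other libraries. NSD1, a histone H3 lysine methyltransferase, differed by -0.29 (SE 0.087, adjusted p = 0.37), with 2530, 2790 and 2522 in treated against 2263, 2201 and 2326 in untreated PEO1 and with overlapping groups in PEO4.

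The remaining 7 were FAM186A, ZZZ3 (a subunit of the ATAC histone acetyltransferase complex), SYCP1 (a component of the synaptonemal complex), CLSTN1 (a calsyntenin), VPS26A (a retromer subunit), PKD2L2 (of the polycystin family) and SSR1 (a subunit of the translocon-associated protein complex), with differences from -0.34 in SYCP1 to -0.56 in PKD2L2 and adjusted p-values of 0.33 to 0.37. In scaled counts the differences of these 7 kept their sign, with edgeR unadjusted p-values from 0.0017 in FAM186A to 0.21 in SYCP1. FAM186A overlaps LARP4, CLSTN1 overlaps PIK3CD, PKD2L2 overlaps FAM13B and SSR1 overlaps CAGE1, each a protein-coding gene of at least 50 kb, so that reads of these bodies are partly shared. In all 10 the response of PEO1 was positive (0.16 to 0.48) and that of PEO4 negative (-0.20 to -0.078). In the 10 higher genes the response of PEO1 was negative (-0.41 to -0.041) and that of PEO4 positive (0.043 to 0.38). Since the gene bodies were taken in order of their p-value, these directions describe the selection.

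**Figure D3:**
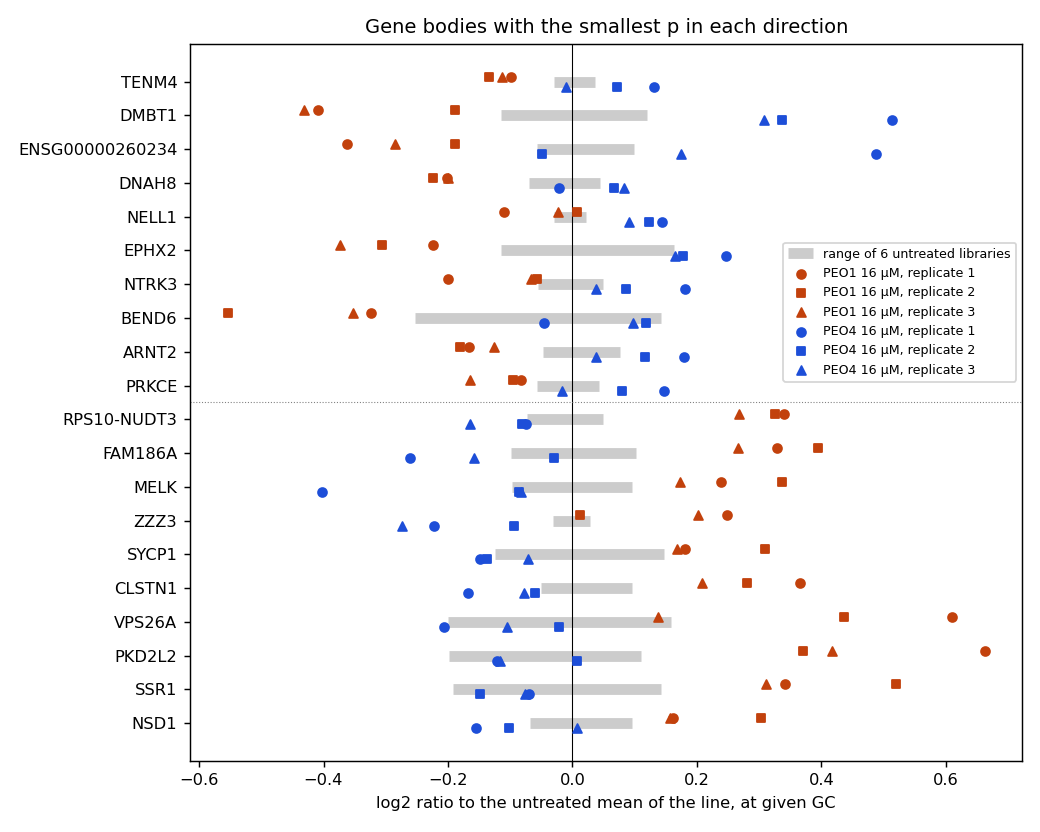
Log2 ratio to the untreated mean of the line at given GC (x axis) for the 20 gene bodies with the smallest p-values, 10 with a higher and, below the dotted line, 10 with a lower response in PEO4 (y axis). Each symbol is 1 treated library and the grey bars span the 6 untreated libraries. The widest separation is that of DMBT1, where the treated PEO1 libraries lie between -0.43 and -0.19 and the treated PEO4 libraries between 0.31 and 0.51.

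Lists of genes by pathway were then described beside all gene bodies, of which 3.61% were higher and 2.92% lower at an unadjusted p under 0.05 and whose median response difference at given GC was 0.0054. No gene of any list passed the adjusted limit. Among 18 tested genes of homologous recombination and the Fanconi pathway the median was -0.032, 3 had a lower response in PEO4 (BRCA2, FANCC and FAN1) and none a higher one. These counts depended on the setting, with 1 higher and 1 lower by DESeq2, 1 higher and 5 lower by limma on ratios and 1 lower with a straight line on GC. When each library was left out in turn, between 1 and 3 were lower and between 0 and 1 higher, with 1 lower without replicate 2 of untreated PEO1, replicate 2 of untreated PEO4 or replicate 3 of treated PEO4, and the median ranged from -0.065 to -0.0046. In scaled counts the median changed sign, to 0.033, and 11 of the 18 were positive. On that scale 1 was lower and 0 were higher at an unadjusted p under 0.05. At given GC, BRCA2, which acts in strand exchange during homologous recombination, was the lowest of the list. It held 500, 613 and 626 scaled counts at given GC in untreated PEO1, 670, 648 and 658 in treated PEO1, 676, 630 and 633 in untreated PEO4 and 498, 517 and 523 in treated PEO4. The treated libraries were above every untreated one in PEO1 and below every untreated one in PEO4. The difference was -0.52 (SE 0.11, unadjusted p = 0.0017, adjusted p = 0.38).

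FANCC, of the Fanconi core complex, had a difference of -0.22 and the nuclease FAN1 of -0.30. The highest of the list was FANCL, the ubiquitin ligase of the same core complex, at 0.26 (unadjusted p = 0.051). In untreated PEO1 it held 1102, 1098 and 1143 scaled counts and in treated PEO1 944, 1007 and 978, while in PEO4 the treated libraries, at 944, 1014 and 935, overlapped the untreated ones, at 865, 1010 and 879. The treated and untreated libraries of FANCL were thus separate in PEO1 only.

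None of 9 nucleotide excision repair genes had an unadjusted p under 0.05 at given GC with edgeR (median -0.043). The highest was RPA1, a subunit of the single-strand binding protein, at 0.088 (SE 0.17), and the lowest UVSSA, of the transcription-coupled branch, at -0.15 (SE 0.13). UVSSA was at -0.72 in scaled counts. None of 9 translesion synthesis genes (median -0.021) or 5 mismatch repair genes (median 0.034) did so either. The counts of excision repair and translesion synthesis depended on the setting. For excision repair 1 gene was lower in scaled counts, 1 with a straight line on GC and 1 without replicate 1 of treated PEO4. For translesion synthesis 1 was lower with a straight line on GC and 1 with the centred GC trend. Leaving out each library in turn gave 0 to 1 in each direction for the latter list. No direction could be given for these lists, since when each library was left out in turn the median ranged from -0.082 to 0.0021 for excision repair, from -0.065 to 0.0096 for translesion synthesis and from -0.015 to 0.054 for mismatch repair. POLQ, the polymerase of theta-mediated end joining, was at 0.19 and POLI at -0.31 (SE 0.23), and PMS1 was at 0.11 and MSH6 at -0.13.

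Among 14 genes of platinum uptake, efflux and detoxification the median was 0.049 and none had an unadjusted p under 0.05 at given GC with edgeR. With limma on ratios 1 was higher and 1 lower, and leaving out each library in turn gave 0 to 1 in each direction. The organic cation transporter SLC22A2 was highest at 0.28 (SE 0.14) and the efflux pump ABCG2 lowest at -0.16 (SE 0.091). In SLC22A2 the treated PEO1 libraries held 668, 765 and 696 scaled counts against 869, 807 and 775 untreated, and the treated PEO4 libraries 766, 634 and 659 against 610, 616 and 732. Of 16 drivers of serous ovarian cancer (median 0.030, and -0.014 to 0.029 when each library was left out), MECOM, a zinc finger transcription factor often amplified in this tumour, had an unadjusted p under 0.05, with a difference of 0.11. TPX2 was lowest at -0.18. At the same unadjusted limit, 0 drivers were higher with DESeq2, with the centred GC trend or without both treated libraries of replicate 1. With limma on ratios or a straight line on GC, 0 were higher and 1 was lower. When each library was left out in turn, between 0 and 1 were higher.

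At given GC, counts ran in opposite directions in the lists of long neuronal and fragile site genes and in the list of broadly transcribed genes. The difference between lists was not tested. Of 24 genes at common fragile sites, which replicate late and break under replication stress, 7 had a higher response in PEO4 and none a lower one (median 0.026), and of 30 neuronal adhesion and synaptic genes 5 were higher and none lower (median 0.048). The highest of the fragile site genes was CSMD1 at 0.12 (SE 0.049) and the lowest SDK1 at -0.10, and the lowest of the neuronal genes was GRIK1 at -0.083. Of 33 broadly transcribed long genes, none was higher and 4 were lower (NSD1, SETD2, MED13 and TAOK1; median -0.019), from TAOK1 at -0.29 (SE 0.15) to DST at 0.067. In scaled counts, 17 of the 33 broadly transcribed genes had a positive difference (median 0.0013), and 1 was lower at an unadjusted p under 0.05. On the same scale, 22 of the 24 fragile site genes and 29 of the 30 neuronal genes had a positive difference, against 52.3% of all gene bodies. The fragile site and neuronal lists had a median GC of 37.1% and 37.3%, below the 41.0% of all gene bodies. Both lists hold very long genes, with median lengths of 1376 and 825 kb, and among all gene bodies of at least 500 kb 11.6% were higher and 0.645% lower.

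RBFOX1, a neuronal splicing factor and 1 of the longest tested genes (2474 kb), illustrates the size of these differences. It held 31293, 30202 and 30941 scaled counts at given GC in untreated PEO1, 30169, 29702 and 30509 in treated PEO1, 29500, 29979 and 29361 in untreated PEO4 and 32018, 30642 and 30581 in treated PEO4. All treated PEO4 libraries were above the untreated ones, while in PEO1 the groups overlapped. The difference was 0.10 (SE 0.030, adjusted p = 0.44). Without both treated libraries of replicate 1, a setting chosen after seeing the data, 4 fragile site genes, 2 neuronal genes and 1 broadly transcribed gene had an unadjusted p under 0.05, in the directions given above, with medians of 0.021, 0.043 and -0.0068. The counts of the fragile site and neuronal lists did not hold under every setting. With limma on ratios none of the fragile site genes and 1 neuronal gene was higher, and none was lower. With the centred GC trend 2 fragile site genes were higher and 1 lower (median 0.0012), and 4 neuronal genes were higher. With a straight line in place of the spline on GC 4 fragile site genes were higher and 1 lower (median -0.0069), and 4 neuronal genes were higher.

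**Figure D4:**
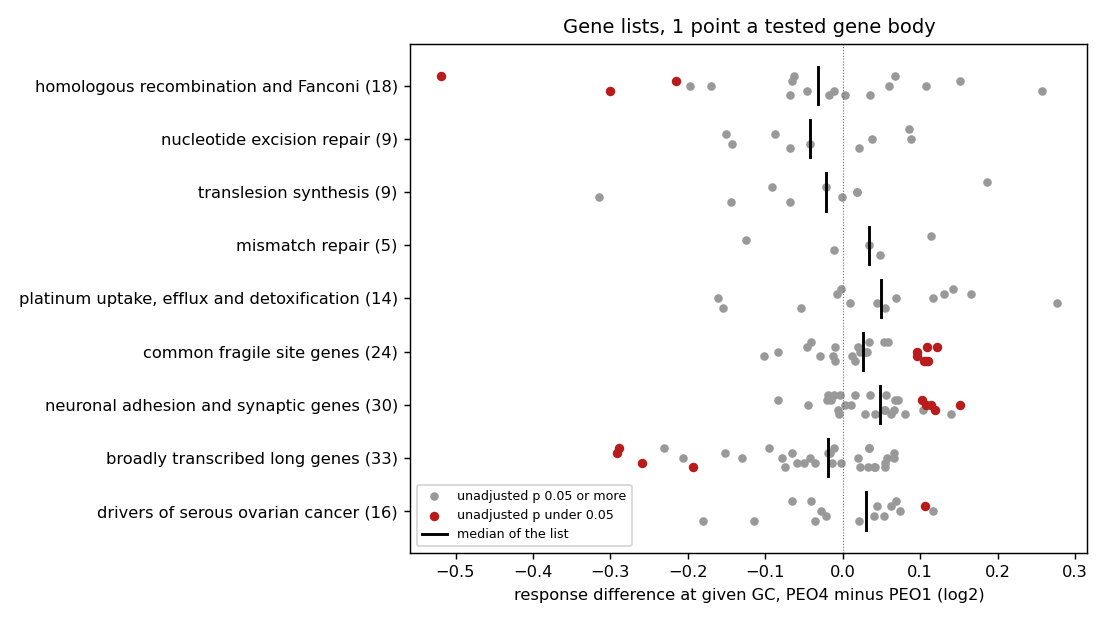
Response difference at given GC in log2, PEO4 minus PEO1 at 16 µM (x axis), of each tested gene body in 9 gene lists (y axis, number tested in parentheses). Black bars are list medians, between -0.043 and 0.049, and red points have an unadjusted p under 0.05. BRCA2 is the leftmost point at -0.52.

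Gene bodies of both directions differed in median length. At given GC, the 234 gene bodies with a higher response in PEO4 at an unadjusted p under 0.05 had a median length of 139.8 kb. The 189 with a lower response had 91.3 kb, against 106.5 kb for all. The median GC of both sets (41.1% and 41.3%) was close to that of all (41.0%), which dividing out the GC trends largely sets in advance. By length, 82 of 2985 gene bodies from 50 to 100 kb were higher (2.75%) and 104 lower (3.48%), and of 2059 from 100 to 200 kb 62 were higher and 62 lower. From 200 to 500 kb, 54 of 1129 were higher (4.78%) and 21 lower (1.86%). Of 310 gene bodies of at least 500 kb, 36 were higher (11.6%) and 2 lower (0.645%). A longer body holds more counts, so the same difference reaches a small p more easily in it. The median difference of these classes was -0.0061, -0.0016, 0.019 and 0.032, and 48.2%, 49.5%, 59.3% and 71.6% of their members were positive.

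Settings for these class counts were chosen after seeing the data, and the excess of higher bodies in the longest class was smaller under some of them. Without both treated libraries of replicate 1, 18 were higher and 3 lower, and the median was 0.020. With the centred GC trend 19 were higher and 8 lower (median 0.0076), and with limma on ratios 9 were higher and 1 lower (median 0.033). There were 37 higher and 2 lower with DESeq2 and 38 higher and 6 lower with a straight line on GC (median 0.016). Leaving out each library in turn gave between 24 and 48 higher and between 1 and 3 lower, the fewest higher without replicate 1 of treated PEO4.

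Over whole libraries, where the test does not treat genes as replicates, the same classes were compared as shares of autosomal reads. At given GC the log2 ratios to the untreated mean in bodies of at least 500 kb were -0.011, 0.0021 and 0.0051 in treated PEO1 and 0.035, 0.017 and 0.0099 in treated PEO4, with untreated libraries between -0.0052 and 0.0068. The treated libraries of both lines did not overlap, and the 3 of PEO4 were above all untreated libraries. The difference was 0.022 (SE 0.0099), with the smallest p that 3 against 3 libraries can give (exact permutation test, p = 0.1, adjusted over 4 classes p = 0.2). Only the treated libraries are permuted, so the spread of the untreated libraries does not enter this p. The error of an untreated mean is shared by all treated values of its line, so the p can be too small. In bodies of 50 to 100 kb the ratios were 0.0076, 0.013 and 0.011 in treated PEO1 and -0.018, -0.0056 and -0.00062 in treated PEO4, a difference of -0.018 (SE 0.0062) with the same exact p. The classes between them differed by -0.0034 and 0.0068 (exact permutation test, p = 0.7 for both).

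In scaled counts the class differences were larger and less certain, from -0.082 (SE 0.061) in bodies of 50 to 100 kb to 0.073 (SE 0.056) in those of at least 500 kb (exact permutation test, p = 0.2 for both). Replicate 1 of treated PEO1 (0.10 and -0.088) and of treated PEO4 (-0.13 and 0.13) carried these values, whereas the other treated libraries lay between -0.012 and 0.020. The GC of the classes fell with length, from 43.3% to 38.8%.

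**Figure D5:**
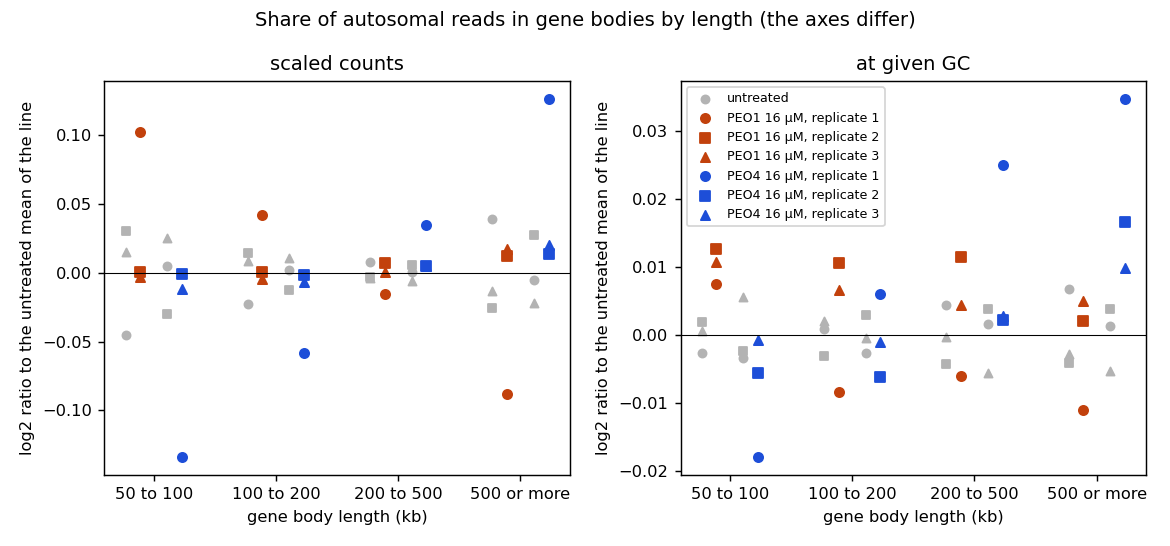
Log2 ratio of the share of autosomal reads in gene bodies of 4 length classes in kb (x axis) to the untreated mean of the line (y axis, with a different scale in each panel), with 1 symbol per library, in scaled counts (left) and at given GC (right). At given GC the treated PEO4 libraries lie between 0.0099 and 0.035 in the longest class, above the treated PEO1 libraries at -0.011 to 0.0051.

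Taken as 1 compartment, the long gene bodies held nearly the same share of autosomal reads in all groups, 40.9% ± 0.072 (SD, n = 3) in untreated PEO1, 41.1% ± 0.053 in treated PEO1, 40.7% ± 0.037 in untreated PEO4 and 40.8% ± 0.065 in treated PEO4. The response difference of this share was -0.0027 (SE 0.0024, exact permutation test, p = 0.2). It was 0.0027 with the GC trend divided out and 0.016 for bodies of at least 100 kb, so no direction could be given.

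Genic windows were also set against intergenic windows of the same 1 Mb bin, where copy number cancels, over 1799 bins with 20 to 80 percent genic windows. The median log2 ratio relative to the untreated mean was 0.016, 0.024 and 0.022 in treated PEO1, above all 3 untreated PEO1 libraries (-0.0046 to 0.0032), and 0.022, 0.0025 and -0.0012 in treated PEO4, where 1 library stood above and the others lay within or at the edge of the untreated range of -0.0041 to 0.0025. The response difference was -0.013 (SE 0.0082, exact permutation test, p = 0.3) and was not larger than the spread between libraries. With the GC trend of 1 kb windows divided out the treated PEO1 libraries were at 0.016, 0.0098 and 0.0038, the treated PEO4 libraries at 0.0048, 0.010 and -0.0022, and the difference was -0.0056 (exact permutation test, p = 0.5).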

How the data were processed

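Pt-exo-seq reads were counted in 15 libraries. As described by the authors, reads were trimmed with BBDuk, aligned to hg19 with Bowtie2, cleared of blacklisted regions and de-duplicated with Picard, and the deposited values are raw read counts per 1 kb window stepped by 900 bp (3439652 windows, 3201158 autosomal); versions are not given in the sources used here. No molecular identifiers are mentioned. Counts were summed by window midpoint over GENCODE release 44 gene bodies mapped to GRCh37, 1 Mb bins with at least 50 percent known bases, and arms. All 15 libraries in 5 groups were fitted with TMM factors in edgeR 4.0.16 (R 4.3.3), using its quasi-likelihood test with Benjamini-Hochberg adjustment over all features (limit 0.05). At given GC, the offset was a natural spline (4 df) of the log2 deviation of a library from the mean of its line, with a pseudocount of 0.5. For arms at given GC the edgeR fit gave negative F values for 14 of 39, so limma 3.58.1 was used in place of the planned test. DESeq2 1.42.0 was an alternative. Limma on log2 ratios to the untreated mean was another, and it fits the treated libraries only, so the spread of the untreated libraries does not enter its p-values. SEs are from the spread of the 3 libraries of each group. Values per library were compared by exact two-sided permutation. Named gene bodies were the 10 with the smallest p at given GC in each direction, at least 1 Mb apart, bins the 4, arms the 3 highest and lowest, and in each list the highest and lowest member; genes of a list with an unadjusted p under 0.05, RBFOX1 and the arms 22q, 19q and 4q were named after their values were seen. The comparison, lists and tests were chosen with earlier results of these data known. The fits were tested on simulated data. Some bins and genes that this rule names are not reported here.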

Additional observations from a re-analysis of the deposited data

Results flagged for a closer look

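The responses of the lines differed in the first bin of chromosome 1 by the test of the difference itself. Its response difference at given GC was -0.41 (edgeR adjusted p = 0.020). It held 2269 to 2518 scaled counts in untreated PEO1 and 3592 to 3719 in untreated PEO4, against a median of 13348 for all bins, and the difference was -0.24 without both treated libraries of replicate 1. The adjusted p exceeded 0.05 when any 1 of 6 libraries was left out, with differences from -0.41 to -0.31. The part of the low count in the difference was not tested. Groups of 3 libraries were too small for a test of outlying samples.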

How the results depend on the processing

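In scaled counts, no gene body, bin or arm passed the adjusted limit under any alternative run. At given GC the counts moved as follows. Gene bodies (0) became 3 with DESeq2, 5 with limma on ratios, 1 with a straight line on GC and 0 to 1 when each library was left out in turn. Bins (1) became 13 with DESeq2, 34 with limma on ratios, 3 with only the 12 libraries, 9 with a straight line, 2 with the centred trend and 0 to 16 when each library was left out, the 16 without replicate 3 of treated PEO4. Arms (0) became 2 with library size only, 1 with DESeq2, 1 with limma on ratios, 1 with only the 12 libraries, 2 without the windows of highest count, 1 without both treated libraries of replicate 1 and 0 to 2 when each library was left out. Counts at an unadjusted p under 0.05 moved by more than 1.5 times for gene bodies with limma on ratios (294 to 737 in scaled counts, 423 to 1080 at given GC), without both treated libraries of replicate 1 (294 to 117 in scaled counts) and, with fewer genes tested, from 100 kb (99 and 245), and for bins in scaled counts with library size only (37 to 58), DESeq2 (77), limma on ratios (90), the replicate block (8), without both treated libraries of replicate 1 (16) and in bins of 500 kb (114). At that unadjusted limit, the number of 1 Mb bins called, at given GC, moved from 270 to 558 with limma on ratios, 179 without both treated libraries of replicate 1 and 472 in bins of 500 kb. The GC slope difference ranged from -0.37 to -0.13 when each library was left out and was 0.019 without both treated libraries of replicate 1. The difference in the share of long gene bodies was 0.0027 with the GC trend divided out and 0.016 from 100 kb. RPA1 ranged from -0.082 to 0.19 and 19p from -0.039 to 0.0063 when each library was left out, and 19p was 0.0049 without both treated libraries of replicate 1. Without both treated libraries of replicate 1, 1 bin still passed the adjusted limit, but with a higher response in PEO4 and not the first bin of chromosome 1. The causes were not tested. Counts in bins of 500 kb are of those shorter bins, which are more numerous than bins of 1 Mb. Their rise over the counts in bins of 1 Mb therefore does not show that a larger share of bins was called. Leaving out both libraries of replicate 1, centring the GC trend and every alternative for counts by length class or gene list were chosen after seeing the data.

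Same-numbered libraries did not deviate together, with a mean correlation of -0.18 over 18 pairs of libraries across 1 Mb bins (from -0.94 to 0.91), so the replicate number was not taken as a pairing. With the number as a replicate block, 2 arms at given GC passed the adjusted limit, 1 bin did, and no gene body (0) did. The GC slope difference of -0.28 had an exact sign-flip p of 0.75 over 3 pairs, where the smallest possible p is 0.25. Depth limited single 1 kb windows, which were not tested.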
